A study of Mus musculus with 2 samples.

Results

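Rod photoreceptors carrying MULTI-seq tag 3 were compared with those carrying tag 1 in a pool of sorted cells from adult mouse retina. A cell barcode was counted as a rod when Sag, Pdc, Gngt1 and Gnat1 together held at least 1% of its unique molecular identifiers (UMIs, each standing for 1 captured RNA molecule) and the cone genes Arr3, Opn1sw, Opn1mw, Gnat2 and Pde6h together held less than 0.5%. No limit was set on mitochondrial RNA. This rule gave 35 rods among 41 barcodes called to tag 3 and 247 among 264 called to tag 1, or 282 of the 834 barcodes in the expression library. In the study, wild-type retinas were electroporated at P0, the day of birth, with the pCIG2 vector alone, with lamin A in pCIG2 or with Lbr in pCIG2, and viable EGFP+ cells were sorted in adulthood. The vector makes EGFP from the same transcript as the inserted gene, and all 3 arms carry it. In the study's account electroporation at this age reaches rods but not cones. The sorted cells were annotated there mainly as rods, along with a few bipolar cells and Müller glia. The strain used for this experiment and the number of retinas behind a tag are not given in the sources used here. Each tag was 1 pool of cells in a single Chromium run, so no test was possible, and every interval below covers counting error only.

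The condition of a tag is not stated in the labels or files. In the study's methods, the cell numbers given for the pCIG2 control, lamin A and Lbr equal the numbers of barcodes called to tags 1, 2 and 3. By that match tag 1 would be the control, tag 2 the lamin A arm and tag 3 the Lbr arm. The numbers are described there as rods left after quality control, whereas the calls cover all barcodes in the tag library, so the groups keep their tag numbers here. The 2 tag oligonucleotides are shown because they alone define the groups, with the 8 bases that identify a tag in capitals, at positions 22 to 29 from the 5′ end. These bases differ between the tags at 4 of 8 positions.
Tag 1: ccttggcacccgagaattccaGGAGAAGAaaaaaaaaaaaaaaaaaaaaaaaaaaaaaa
Tag 3: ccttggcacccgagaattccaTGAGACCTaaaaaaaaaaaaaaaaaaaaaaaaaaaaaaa

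Rods detect light through the G protein transducin, which acts on a phosphodiesterase that lowers cyclic GMP and closes channels in the outer segment. Their nuclei are inverted in mice, with heterochromatin gathered in the centre instead of at the envelope. The lamin B receptor Lbr and lamin A, encoded by Lmna, are envelope proteins that tether heterochromatin to the nuclear periphery, and mature mouse rods normally have little of either.

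Rods of both tags were first checked for depth and identity. Tag 3 rods held a median of 2311 UMIs (908 to 8395) from a median of 521 genes, and tag 1 rods 2815 UMIs (566 to 85822) from 587 genes. Mitochondrial transcripts made up a median of 13.8% of UMIs in tag 3 rods and 11.9% in tag 1 rods. The tag called for a rod held a median of 78.6% of its tag counts in tag 3 (35% to 92.7%) and 82.0% in tag 1 (50% to 100%). It held at least 70% of at least 5 tag counts in 24 of 35 tag 3 rods and 207 of 247 tag 1 rods, so some calls were less clear. The 4 rod genes of the rule held 2.24% to 5.75% of UMIs in tag 3 rods. The highest share among tag 3 barcodes below the limit was 0.0841%, so no tag 3 barcode lay near it. In tag 1 rods these genes held 1.22% to 9.19%, the lowest close to the limit, and the highest share below it was 0.272%. All 12 rod markers had UMIs in both tags. In tag 3 rods, markers of microglia (7) and pigment epithelium (4) were at 0. Bipolar markers (8) had 7 UMIs in 3 tag 3 rods, and cone markers (6) had 3 UMIs in 1. Müller glia markers (7) had 95 UMIs there, of which 93 were Clu. Tag 1 rods held 166 bipolar UMIs in 22 rods, 45 cone UMIs in 9 and 23 microglia UMIs in 8. They also held 813 Müller UMIs in 124 rods and 1 pigment epithelium UMI. The summed bipolar markers ranged from 0 to 11.7 UMIs per 10000 in tag 3 rods and from 0 to 33.3 in tag 1 rods, while the Müller markers reached 75 and 108.6. A single tag 1 rod with 85822 UMIs held 9.25% of all tag 1 rod UMIs. Its part in the shares is small, since it counts as 1 rod, and levels in CPM, the summed UMIs of a gene per 1000000 UMIs, are given for tag 1 without it.

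Because tag 3 rods were shallower, each rod was thinned to 1300 UMIs, which left 31 tag 3 rods and 225 tag 1 rods and set aside 4 and 22 shallower ones. The thinned share is the share of these rods expected to hold at least 1 UMI of a gene among 1300 drawn from each rod, and it was used for genes with a mean share of at least 10% over both tags. A gene was counted as higher or lower when its shares differed by at least 20 percentage points and its CPM differed in the same direction. Of 974 genes compared, 7 were higher in tag 3 (0.719%) and 13 were lower (1.33%). The median difference over all 974 genes was 0.87 points, with quartiles of -4.35 and 5.78. Just short of the limit lay Atp5e and Ndufb9, both at 19.3 points, on the higher side, and Rp1 at -17.8 and Agpat3 at -17.4 points on the lower side. The exact 95% intervals of the shares before thinning did not overlap for 4 of the 7 higher genes and 9 of the 13 lower genes. Over all 974 genes such intervals lay apart for 7 (0.719%) on the higher and 19 (1.95%) on the lower side.

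**Figure D1:**
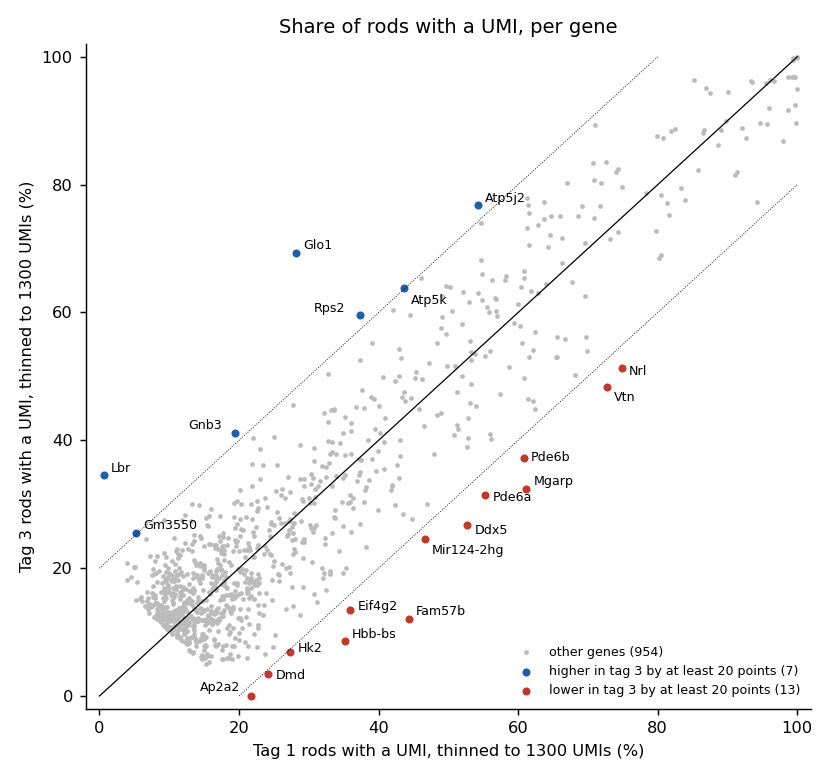
Share of tag 3 rods (vertical) against share of tag 1 rods (horizontal) with at least 1 UMI after thinning to 1300 UMIs, in percent, 1 point per gene for 974 genes; the solid line marks equal shares and the dotted lines 20 points of difference. Glo1 and Lbr stand farthest above the line, and Fam57b and Mgarp farthest below it.

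Lbr was found mainly in tag 3 rods. The lamin B receptor gene (ENSMUSG00000004880, chromosome 1, 181815335 to 181843046, minus strand, mm10) had a UMI in 13 of 35 tag 3 rods (37.1%, exact interval 21.5% to 55.1%) and in 4 of 247 tag 1 rods (1.62%, 0.443% to 4.09%). The 13 tag 3 rods held 1, 1, 1, 1, 3, 3, 4, 4, 6, 6, 8, 11 and 23 Lbr UMIs, and the 4 tag 1 rods held 1, 2, 3 and 4. The remaining 22 tag 3 rods had no Lbr UMI, and the range overlapped that of tag 1. At a median of 2311 UMIs per tag 3 rod, a count of 0 does not show that a rod lacked Lbr RNA. The share of tag 3 rods that expressed Lbr is therefore not known. In CPM the level was 806 in tag 3 and 11.9 in tag 1, from 72 (56.3 to 90.7) and 10 (4.80 to 18.4) UMIs. Thinned shares were 34.5% and 0.635%, a difference of 33.9 points. Reference values came from barcodes with microglia or bipolar markers and little rod RNA. An Lbr UMI was held by 0 of 15 microglia-marker barcodes (median 3878 UMIs) and 1 of 45 bipolar-marker barcodes (2.22%, median 7778 UMIs). These barcodes came from the same sorted pool and may hold Lbr of their own, so they do not measure background alone. Thinned to equal depth the shares were 0.635% in tag 1 rods and 0.534% in bipolar-marker barcodes, and the levels 11.9 and 3.01 CPM, the latter from a single UMI. With a single UMI in the reference, these values cannot decide whether the Lbr of tag 1 rods was above background. Gene counts cannot separate the plasmid's transcript from that of the mouse's own Lbr, and Lbr was not used to name the tags.

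Other genes of the envelope did not reach the filter on low shares. Lmna had 0 UMIs in the 35 tag 3 rods and 0 in the 247 tag 1 rods. A floor of 3 counts would allow 8.57% and 1.21% of rods with a UMI, and the exact intervals reach 10.0% and 1.48%, which do not limit the share of rods that express the gene. Of 23 genes listed for the nuclear envelope and lamina, Lbr alone reached a mean share of 10%, and 20 had any UMI in the rods of either tag. Emd, which encodes emerin, was seen in 4 of 35 tag 3 rods and 51 of 247 tag 1 rods, with thinned shares of 8.43% and 9.75%. Tpr, for a protein of the nuclear pore basket, was seen in 5 and 36 rods, with 8.21% and 10.3%. Syne2, for the outer membrane protein nesprin 2, was seen in 4 and 24 rods and had thinned shares of 5.87% and 6.20%. Kpna2, an importin, had 8.94% and 8.23%. Lbr also has sterol reductase activity, and among 23 genes of sterol synthesis only Pmvk passed the filter on low shares, at 22.1% in tag 3 and 11.6% in tag 1.

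**Figure D2:**
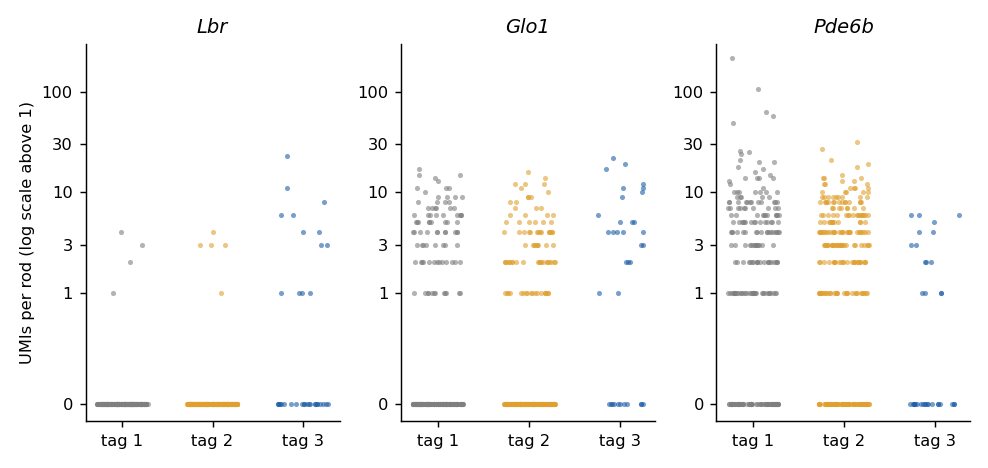
UMIs of Lbr, Glo1 and Pde6b in each rod (vertical, log scale above 1), 1 point per rod, with horizontal scatter for legibility, for tag 1 (247 rods), tag 2 (280) and tag 3 (35). Lbr UMIs reach 23 in a tag 3 rod and 4 in tags 1 and 2, and Pde6b UMIs stay at or below 6 in tag 3 rods.

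Glo1 had the largest difference. It encodes glyoxalase 1, which detoxifies methylglyoxal, a by-product of glycolysis (ENSMUSG00000024026, chromosome 17, 30584936 to 30626871, minus strand). A Glo1 UMI was found in 24 of 35 tag 3 rods (68.6%, interval 50.7% to 83.1%) and in 85 of 247 tag 1 rods (34.4%, 28.5% to 40.7%). Rods with any held between 1 and 22 UMIs in tag 3, with a median of 4.5, and between 1 and 17 in tag 1, with a median of 4. More rods of tag 3 thus had Glo1, while the numbers per positive rod overlapped. Thinned shares were 69.3% and 28.2%, and the levels were 1858 and 500.0 CPM. Among the reference barcodes, 2 of 15 with microglia markers and 33 of 45 with bipolar markers (73.3%) held Glo1. Hagh, the glyoxalase that acts after Glo1, had thinned shares of 16.2% in tag 3 and 21.1% in tag 1. Btbd9, the neighbouring gene on the same strand, was seen in 0 of 35 and 12 of 247 rods. The list of methylglyoxal and redox defence genes had 21 members in the matrix, of which 10 passed the filter, 6 of them above 0 and 4 below, with a median difference of 1.30 points. Glo1 was its only member past the limit.

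Gnb3, the β subunit of cone transducin that ON bipolar cells also use (ENSMUSG00000023439, chromosome 6, 124834240 to 124840275), was found in 17 of 35 tag 3 rods (48.6%, 31.4% to 66.0%) and 62 of 247 tag 1 rods (25.1%, 19.8% to 31.0%). In rods with any, the UMIs ran from 1 to 24 in tag 3 and from 1 to 21 in tag 1, with medians of 4 and 3. Thinned shares were 41.2% and 19.5%. It was present in 36 of 45 bipolar-marker barcodes (80%) and in 0 of 15 microglia-marker barcodes. Without the 4 tag 3 rods and 27 tag 1 rods that held any bipolar or cone marker UMI, an alternative chosen after seeing the data, the difference in Gnb3 was 19.7 points against 21.7 with them. For Glo1 it was 36.6 points and for Lbr 35.3 points. Among rods whose called tag held at least 70% of at least 5 tag counts (20 tag 3 and 189 tag 1 rods), the Gnb3 difference was 11.5 points, short of the limit, while Glo1 stood at 36.2 and Lbr at 43.4. Of 12 genes listed for cones, Gnb3 was the 1 member that passed the filter on low shares.

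Of 15 listed subunits of the mitochondrial ATP synthase, 8 were above 0 and 7 below, with a median difference of 1.73 points, and 2 of them were past the limit on the higher side. Atp5j2 (subunit f) was found in 28 of 35 tag 3 rods and 158 of 247 tag 1 rods, with thinned shares of 76.8% and 54.2%. Atp5k (subunit e) was found in 24 and 142 rods, with 63.8% and 43.7%. Rps2, a protein of the small ribosomal subunit, had 24 and 149 rods with 59.5% and 37.4%. The unthinned intervals of the tags overlapped for each of these 3 genes. Gm3550, a predicted gene whose product is not known here, was found in 15 of 35 tag 3 rods and 30 of 247 tag 1 rods. Its UMIs were sparse, with at most 2 in a tag 3 rod and 3 in a tag 1 rod, and the thinned shares were 25.6% and 5.18%.

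**Figure D3:**
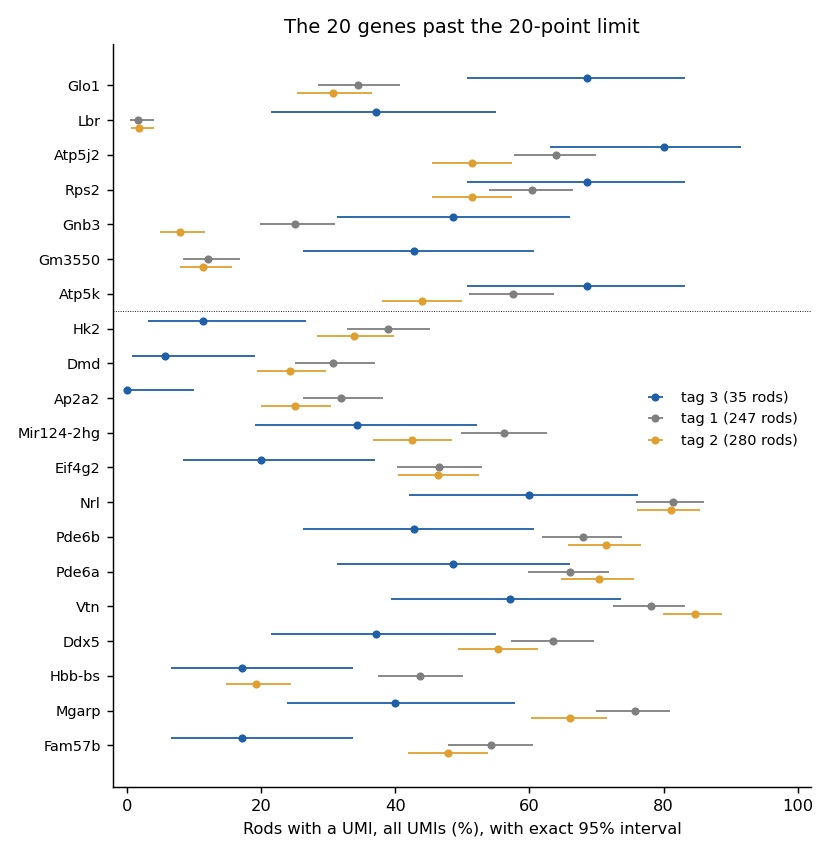
Share of rods with at least 1 UMI before thinning, in percent, for the 20 genes past the limit, ordered by their thinned difference. Points are shares of tag 3 (35 rods), tag 1 (247) and tag 2 (280), and bars are exact 95% intervals; tag 3 lies to the right of tag 1 for the 7 genes above the dotted line and to the left for the 13 below it.

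Among the lower genes, the catalytic subunits of the rod phosphodiesterase stood together. Pde6b (ENSMUSG00000029491, chromosome 5, 108388391 to 108432397, plus strand) was detected in 15 of 35 tag 3 rods (42.9%, 26.3% to 60.6%) and 168 of 247 tag 1 rods (68.0%, 61.8% to 73.8%). Rods with any held 1 to 6 UMIs in tag 3 and 1 to 219 in tag 1, with medians of 3 and 4. The 219 UMIs lay in the tag 1 rod with 85822 UMIs, far deeper than any tag 3 rod. The thinned shares were 37.3% and 60.8%, and the levels 526 and 1402 CPM. Pde6a, the partner subunit, was detected in 17 and 163 rods, with thinned shares of 31.4% and 55.3%. Its median in rods with any was 1 UMI in tag 3 and 4 UMIs in tag 1. Pde6b and Atp5k lie tail to tail, 846 bases apart, and one was lower and the other higher in tag 3. Pde6b had a UMI in 0 of 15 microglia-marker and 1 of 45 bipolar-marker barcodes, against 42.9% and 68.0% of the rods.

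Nrl, the leucine zipper factor that sets rod fate (ENSMUSG00000040632, chromosome 14, 55518978 to 55524981, minus strand), was found in 21 of 35 tag 3 rods (60%, 42.1% to 76.1%) and 201 of 247 tag 1 rods (81.4%, 76.0% to 86.0%). Positive rods held 1 to 24 UMIs in tag 3 and 1 to 73 in tag 1, the 73 in the tag 1 rod with 85822 UMIs. The thinned shares were 51.4% and 74.8%, whereas the CPM levels, at 1444 and 1708, were closer, and the unthinned intervals overlapped slightly. The difference of -23.5 points was -12.2 with the stricter tag call and -16.0 with the study's cell filter (200 to 2500 genes and at most 18% mitochondrial UMIs, 21 tag 3 and 179 tag 1 rods), short of the limit in both.

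The gene farthest below the line was Fam57b (ENSMUSG00000058966, chromosome 7, 126797668 to 126830219), which encodes a ceramide synthase. It was found in 6 of 35 tag 3 rods (17.1%, 6.56% to 33.6%) and 134 of 247 tag 1 rods (54.3%, 47.8% to 60.6%), with at most 5 UMIs in a tag 3 rod and 44 in a tag 1 rod. The 44 UMIs lay in the tag 1 rod with 85822 UMIs. Thinned shares were 12% and 44.3%, a difference of -32.3 points. Mgarp, a mitochondrial protein gene on chromosome 3, followed at 32.5% and 61.2%, and was also present in 43 of 45 bipolar-marker barcodes. Hk2, the hexokinase that starts glycolysis in photoreceptors, was found in 4 of 35 and 96 of 247 rods, with 6.96% and 27.3%. Ap2a2, a subunit of the clathrin adaptor AP-2, was at 0 in all 35 tag 3 rods (exact interval up to 10.0%, 8.57% by the floor of 3 counts) and present in 79 of 247 tag 1 rods (32.0%, 26.2% to 38.2%). Dmd, whose dystrophin anchors the rod terminal, was found in 2 of 35 and 76 of 247 rods, and 170 of the 669 tag 1 UMIs lay in the rod with 85822 UMIs.

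The other lower genes had unlike roles. The RNA helicase gene Ddx5 had thinned shares of 26.8% in tag 3 and 52.7% in tag 1, and the translation factor gene Eif4g2 13.4% and 35.9%. Mir124-2hg, a noncoding transcript that hosts a precursor of miR-124, had 24.6% and 46.6%. Vtn, for the matrix protein vitronectin, was found in 20 of 35 and 193 of 247 rods, with thinned shares of 48.4% and 72.7% and overlapping unthinned intervals. Hbb-bs, a haemoglobin gene of red blood cells, was found in 6 of 35 tag 3 rods with 1 UMI in each, and in 108 of 247 tag 1 rods with up to 72. It shares much of its sequence with Hbb-bt, so reads that match both are uncertain. Blood markers summed to 0.672 UMIs per 10000 in tag 3 rods (0 to 11.0 per rod) and 12.3 in tag 1 rods (0 to 337), and their part in the other differences was not tested. With the stricter tag call, Gm3550 (16.4 points), Mgarp (-17.6), Hk2 (-14.6), Vtn (-18.6) and Mir124-2hg (-19.0) were also short of the limit. With the cell filter this held for Gm3550 (14.6), Rps2 (15.3), Pde6b (-19.3), Hk2 (-19.8), Dmd (-17.7), Eif4g2 (-18.3) and Vtn (-19.0).

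The rod's own gene groups were then described as whole lists, by role in the cell. All 10 listed genes of the activation cascade passed the filter, and 2 were above 0 and 8 below, with a median difference of -7.03 points against 0.87 for all genes. The rod rule used Gnat1 and Gngt1 of this list, and Sag and Pdc of the next. Beyond Pde6a and Pde6b, which were past the limit, the exchanger gene Slc24a1 stood at -11.1 points and the channel genes Cnga1 and Cngb1 at -9.50 and -9.01. Gngt1 and Pde6g, the small subunits of transducin and of the phosphodiesterase, had a UMI in all 35 tag 3 rods. Of 14 genes of shut-off and calcium feedback, 11 passed the filter, 9 of these were below 0, and the median was -8.56 points with none past the limit. Rgs9, which speeds transducin's return to rest, was found in 6 of 35 tag 3 rods and 88 of 247 tag 1 rods (-16.0 points). Guca1a and Guca1b, the calcium sensors of guanylate cyclase, stood at -9.54 and -11.0 points, while Gnb5, the partner of Rgs9, stood at 7.18. Rcvrn and Sag, for recoverin and arrestin, had a UMI in all 35 tag 3 rods, and Pdc, for phosducin, stood at -7.24 points.

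Most genes compared from the disc, synapse and transcription factor lists were also below 0. Of 14 genes of the outer segment disc and matrix, 13 passed the filter, 9 were below 0 and 4 above, and the median was -7.02 points. Rp1, for a microtubule protein of the axoneme, had thinned shares of 50.3% and 68.1%, Prph2 89.7% and 99.8%, Rom1 91.7% and 98.7%, and Rtbdn, a retinal riboflavin-binding protein, 56.1% and 65.6%. Above 0 lay Impg2, a matrix proteoglycan, at 36.2% and 23.5%. Of 29 genes of the ribbon synapse, 18 were too rare for the comparison and 10 of the other 11 were below 0, with a median of -10.2 points. Vamp2 (-17.3), the glutamate transporter Slc17a7 (-16.9), Cabp4 (-14.8) and Snap25 (-13.6) were the next below Dmd, and synaptophysin, Syp, was the exception at 10.9. Among 19 photoreceptor transcription factors, 8 passed the filter, 7 of them were below 0, and the median was -11.5 points. Nr2e3, which represses cone genes in rods, was found in 18 of 35 and 169 of 247 rods (-14.9 points), Crx in 6 and 91 (-13.6), and Neurod1 in 15 and 127 (-0.975). These medians were below 0 in each of 11 alternative settings, although with all UMIs and no thinning the median of all genes was itself -2.27 points. The settings draw on the same rods and are not independent of each other.

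**Figure D4:**
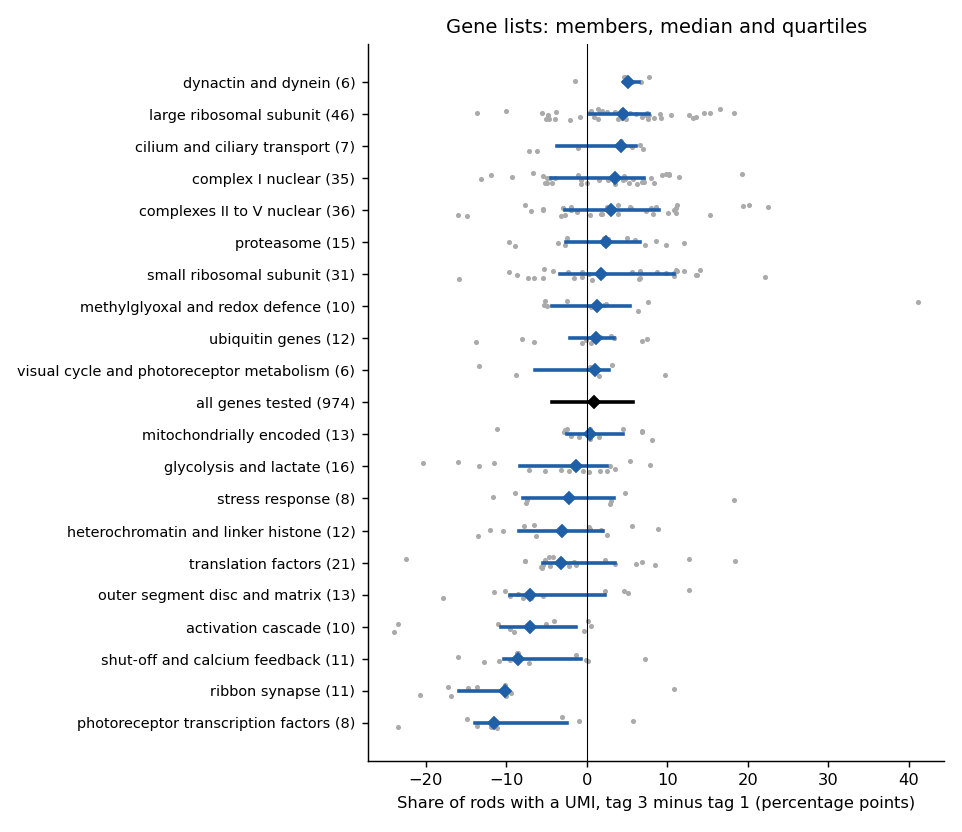
Difference in the thinned share of rods with a UMI, tag 3 minus tag 1, in percentage points, for the members of 20 gene lists that passed the filter on low shares (grey points, number in brackets), with the list's median (diamond) and quartiles (bar) and, in black, the same for all 974 genes. The transcription factor and ribbon synapse lists have the lowest medians, at -11.5 and -10.2 points.

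Heterochromatin genes were examined because Lbr acts on heterochromatin. Of 51 members in the matrix, 39 did not reach the filter, and of the 12 that did 6 were above 0 and 6 below, with a median of -3.02 points and none past the limit. The median stayed between -5.88 and -0.73 points in the 11 alternative settings. Hist1h1c, a linker histone, was found in 4 of 35 tag 3 rods (11.4%, 3.20% to 26.7%) and 68 of 247 tag 1 rods (27.5%, 22.1% to 33.6%), and its thinned shares were 7.76% and 21.3%. Cbx3, a heterochromatin protein 1 gene, was found in 9 and 128 rods, with 25.7% and 36.1%. The histone H3.3 genes H3f3a and H3f3b stood at 2.56 and -6.37 points, and the chromatin protein gene Hmgn1, seen in 34 of 35 tag 3 rods, at 0.325.

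Stress-responsive genes showed no common direction. Of 44 members, 8 passed the filter, 4 were above 0 and 4 below, and none passed the limit. Hspa8, a constitutive chaperone of the Hsp70 family, was found in 24 of 35 tag 3 rods and 128 of 247 tag 1 rods, with thinned shares of 60.4% and 42.1%. Hsp90aa1, the inducible cytosolic Hsp90, had 68.6% and 80.2%, and Hspa5, the chaperone of the endoplasmic reticulum, 25.1% and 22.1%. The median was -2.27 points and turned to at most 1.80 under other settings.

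Among the lists for energy supply and protein synthesis, the large ribosomal subunit had the highest share of members above 0. Of 46 proteins of the large ribosomal subunit that passed the filter, 35 (76.1%) were above 0, against 55.2% of all genes, and the median was 4.45 points. Rpl39 was found in 32 of 35 and 197 of 247 rods (18.3 points), and Rpl36 in 22 and 189 (-13.6). For the small subunit 19 of 31 (61.3%) were above 0, with a median of 1.71 points, and Rps2 was the 1 member past the limit. Nuclear genes of respiratory complex I had 21 of 35 (60%) above 0 and a median of 3.45 points, and those of complexes II to V had 22 of 36 (61.1%) and 2.97 points, shares near that of all genes. The ATP synthase gene Atp5a1, by contrast with Atp5j2 and Atp5k, was found in 7 of 35 and 97 of 247 rods (-14.8 points). All 13 mitochondrially encoded genes passed, with 7 above 0 and a median of 0.40 points. The 3 respiratory lists and the small ribosomal subunit changed the sign of their median under at least 2 of the 11 alternatives, whereas the large subunit stayed between 0.73 and 4.65 points.

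Glycolysis, translation factors and protein turnover had mixed members. In glycolysis and lactate handling 7 of 16 genes were above 0 (median -1.41 points), with Pgam1 at -16.0 and Ldhb at 7.88 points beside Hk2. Of 21 translation factors 7 were above 0 (median -3.25 points), with Eef2 at 18.4 points and Eif4g2 past the limit on the lower side. The proteasome list had 10 of 15 above 0 (median 2.41 points), the ubiquitin list 7 of 12 (1.09), and the dynactin and dynein list 5 of 6 (5.17), with no member of these past the limit. Of 32 ciliary genes 7 passed the filter, with Arl3 at 7.01 and Tulp1 at -7.13 points.

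For genes that nearly every rod expresses, shares say little, so UMIs per 10000 UMIs of a rod were compared. Values are given for 23 genes with a UMI in over 90% of rods of both tags. Transducin's β subunit, Gnb1, had a median of 37.6 per 10000 in tag 3 rods (quartiles 26.9 and 55.7, 0 to 105) and 53.5 in tag 1 rods (37 and 79, 0 to 227). Recoverin had 74.1 and 99.6, and Gnat1, the transducin α subunit that the rod rule used, 39.3 and 46.6. In all, 15 of the 23 genes had the lower median in tag 3. They included all 8 that belong to the cascade, shut-off or disc lists, of which the rod rule used 4, and 6 of the 8 that are neither in these lists nor mitochondrial. The ratios of the 8 rod genes ran from 0.70 for Gnb1 to 0.97 for Gngt1. The direction depended on the measure. In CPM, Gngt1 was higher in tag 3 (18301 and 16525) and recoverin nearly equal (9716 and 9821), with the rest of the 8 lower. Hmgn1 (6223 and 5689), H3f3a (3929 and 3182) and Aldoa (4119 and 3569) were also higher in tag 3 by CPM, while Gapdh, Tma7 and Ubb were lower. With the largest tag 1 rod kept in, recoverin (9716 and 9133) and Tma7 (8820 and 8644) were higher in tag 3, so their direction rests on that rod. By median per rod, mitochondrial messages pointed the other way from the rod genes, with 6 of 7 higher in tag 3. The median of mt-Nd4 was 96.5 and 70.3, that of mt-Cytb 260 and 196, and that of mt-Co1, the exception, 78.7 and 84.5. The largest ratio was that of Rpl41, a ribosomal protein gene, at 1.56 (32.2 and 20.6). For each of these genes the quartiles of the tags overlapped. The values of a rod sum to a fixed total, so these levels are not independent of each other.

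**Figure D5:**
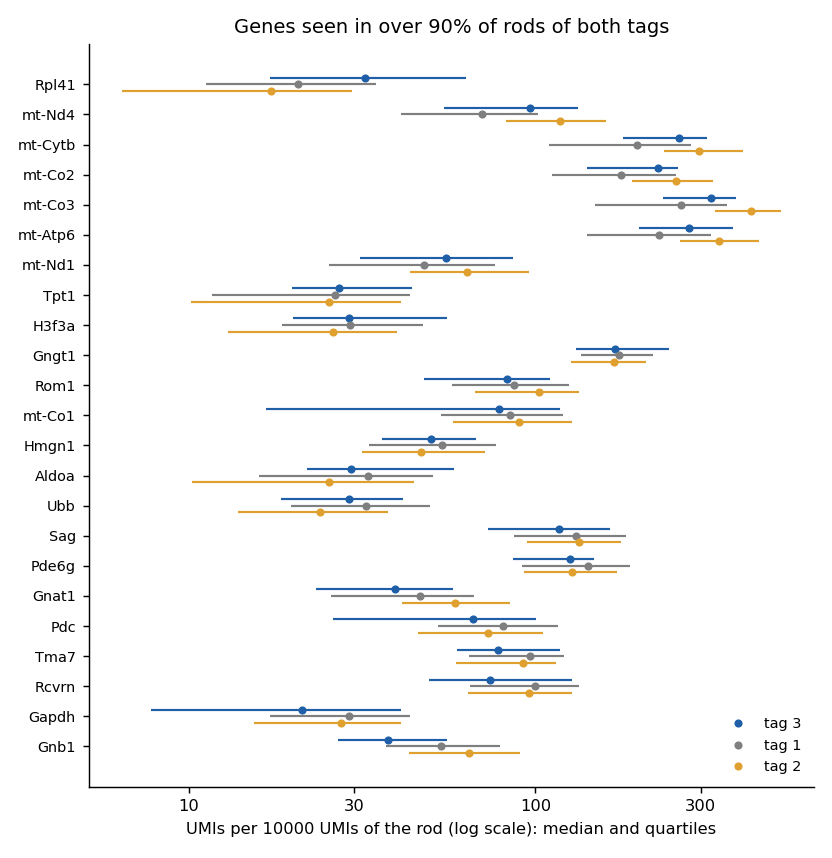
UMIs per 10000 UMIs of the rod (horizontal, log scale) for 23 genes seen in over 90% of rods of both tags, ordered by the ratio of medians; points are medians and bars quartiles over 35 tag 3, 247 tag 1 and 280 tag 2 rods. Gnb1 and Gapdh have the lowest ratios of tag 3 to tag 1, and Rpl41 the highest.

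Rods of tag 2, compared with the same tag 1 rods, are set beside these values. Since both comparisons share tag 1, a like or unlike sign is not independent. Of 929 genes compared for tag 2, 0 were higher by 20 points and 2 (0.215%), Hbb-bs and Elob, were lower. Of the 20 genes past the limit in tag 3, 17 differed between tag 2 and tag 1 by less than 10 points, as did 916 of the 974 genes compared for tag 3 (94.0%). Lbr had a UMI in 5 of 280 tag 2 rods (1.79%), and Glo1 in 86 (30.7%). Lmna, at 0 in the other 2 tags, had 44 UMIs in 4 tag 2 rods, 35 of them in 1 rod. The thinned shares of Pde6b, Pde6a and Nrl were 64.2%, 62.3% and 75.2% in tag 2, each at or above the tag 1 value. Fam57b stood at 40.6% in tag 2, against 44.3% in tag 1. The other 3 were Hbb-bs, Mir124-2hg and Gnb3. Hbb-bs stood at 11.8% in tag 2 and 8.54% in tag 3 against 35.1% in tag 1. Mir124-2hg had 33.3% in tag 2 and 24.6% in tag 3 against 46.6% in tag 1. Gnb3 was lower in tag 2 than in tag 1, at 6.70% against 19.5%, the opposite of tag 3.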

How the data were processed

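The authors made the expression matrix with Cell Ranger against mm10, and it was deposited as UMI counts by gene and barcode without normalization. The submitters' processing notes name version 6.1.2 and the matrix header 3.1.0. The deposited tag matrix holds counts per tag and barcode for 645 of the barcodes, and the deposited table of tag calls gives a call and a singlet probability, a fraction from 0 to 1, both made by the authors. Barcodes called doublet or negative, or without tag data, were in no group.

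Shares after thinning were computed exactly from the hypergeometric distribution, at the 10th percentile of UMIs per rod rounded down to a multiple of 100. Intervals of shares are Clopper-Pearson and those of UMI sums exact Poisson, at 95%, for counting error only, and a count of 0 allows 3 counts. CPM are a gene's summed UMIs per 1000000 in the rods of a tag, whose totals were 89340 in tag 3 and 927760 in tag 1. The tag 1 CPM printed above leave out the rod with 85822 UMIs. The direction of CPM required for a call used all tag 1 rods. Genes were named by rule: Lbr and Lmna, up to 15 past the limit in each direction, list members past it, the 3 most often detected members of the phototransduction, disc, envelope, heterochromatin and stress lists, and the genes of the rod rule. Further list members at the ends of their list, and genes just outside the limit, were chosen after their values were seen. The members and lists were chosen with earlier results of these data known. Symbols on 2 rows took the row with more UMIs. Of 31053 gene identifiers, 31011 were in GENCODE M21 (mm10), the source of coordinates. The procedure was run on counts simulated from the mean profile of tag 1 rods, with planted changes. Simulated rods of a tag differed only in depth and sampling, so the run does not cover the variation among real rods. Doublets were called with Scrublet in scanpy 1.11.5 for 1 alternative. Other alternatives changed the thinning, the filters, the tag call, the rod rule or the limit. Analyses used Python 3.11.15, numpy 2.4.6 and scipy 1.17.1. One gene is not reported here.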

Additional observations from a re-analysis of the deposited data

Results flagged for a closer look

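Lbr UMIs were also found in rods outside the compared tags. Of 18 rods called doublets from their tags, 2 held Lbr (11.1%, exact interval 1.38% to 34.7%), with 20 UMIs in all and 19 of them in 1 barcode, and of 92 rods without tag data 2 held it (2.17%, 0.264% to 7.63%), with 5 UMIs. Both shares were above the 1.62% of tag 1 rods, and both intervals include that value.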

How the results depend on the processing

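Of 220 differences for the 20 genes past the limit under 11 alternatives each, 0 changed sign and 163 were at least 20 points in size. Lbr ranged from 21.7 to 43.4 points and Glo1 from 30.2 to 46.4, and the lowest value among the others was 0.43 for Gm3550, with at least 2 UMIs. The counts of genes were less stable than their directions. With no thinning 35 genes were lower, and with thinning to 600 UMIs 3 were higher and 3 lower. Higher genes numbered 11 when only non-mitochondrial UMIs were thinned, 11 in 1 random draw, 17 with the study's cell filter (21 tag 3 rods) and 4 with at least 2 UMIs. A limit of 15 points gave 29 higher and 31 lower, and a limit of 30 points 2 higher and 1 lower. Of the 7 higher and 13 lower genes, 5 and 8 remained under the strict tag call (20 tag 3 rods) and 5 and 7 under the cell filter. With no thinning 4 and 12 remained, with 600 UMIs 2 and 3, in the random draw 4 and 6, and with at least 2 UMIs 4 and 10. Leaving out the largest tag 1 rod, a choice made after seeing the data, kept all 20. Scrublet called 2 barcodes, of which 1 was a tag 1 rod and 0 were tag 3 rods. No replicate could be left out and no paired analysis was possible because each tag is 1 pool. With 35 tag 3 rods, 1 rod is 2.86 points of a share, and differences under the 20-point limit were not resolved.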
